A study of Dicentrarchus labrax with 30 samples.

Results

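The pituitary of European sea bass (Dicentrarchus labrax) was compared between bold and shy fish in 10 of the 30 samples of the series, all those labelled pituitary. Of these, 5 came from bold fish (2 females and 3 males) and 5 from shy fish (3 females and 2 males), with 1 fish per sample. All fish were 478 days old, counted from fertilization, were reared under the same protocol, and the labels name no treatment or engineered allele. Boldness was read from how soon a fish left the sheltered end of its tank, in 4 tests over 7 months of which the first 3 were used for choosing. Fish that came out early each time were called bold, and those that came out very late or stayed in were called shy. RNA was sequenced from the whole gland as polyadenylated mRNA, and counts of reads per gene were compared across all genes, with sex as a covariate. The females are named shy 3, shy 4, shy 5, bold 1 and bold 4 below, and the males shy 1, shy 2, bold 2, bold 3 and bold 5. Values per sample are given in that order within each group.

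The pituitary sits below the brain and turns signals of the hypothalamus into hormones of growth, reproduction, thyroid function and stress. Its corticotrope cells release the hormone that drives cortisol synthesis in the interrenal cells of fish, and cortisol acts back on the gland through the glucocorticoid receptor, whose targets include FKBP5, KLF9 and PER1. Behavior was recorded before sampling, so the comparison is of fish that had behaved differently and not of a treatment. Since whole glands were used, fewer cells of a type and less RNA per cell cannot be told apart in any result that follows.

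The samples held 3808645 (shy 1) to 12550808 counts (bold 1), with 19814 to 21875 genes detected. TSHB DLAgn_00096090, the beta subunit of thyrotropin and a defining gene of pituitary thyrotropes, stood at 1771 to 3775 CPM (counts scaled to a common library size with TMM factors) in every sample, which fits the tissue label. Prolactin, growth hormone, POMC and the gonadotropins were not analysed here. The shy males stood apart from the other samples. Their cytosolic ribosomal protein genes took 3% (shy 1) and 1.86% (shy 2) of all counts, against 3.96% to 5.48% in the other 8 samples, and their median Spearman correlation with the other samples was 0.919 and 0.906, against 0.955 to 0.963. They are all the males labelled shy, so the comparison was run on all 10 samples, without the shy males, and within each sex. Many single genes below are given for the 10 samples alone, and the gene lists are not given without the shy males.

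Across the 10 samples, the 15 genes with the smallest p among those higher in bold fish included 5 of the collagen and matrix list (COL1A2, COL1A1B, COL2A1, COL11A1 and BCAN). They also included the guanylate-binding protein GBP, the clock genes KIAA1737 and NR1D2, the kinase STK35 and the phosphatase SSH1. No gene passed the test over all genes: edgeR's quasi-likelihood test called 0 of 17102 genes (0%) at a Benjamini-Hochberg adjusted p under 0.05, and the smallest adjusted p was 0.112. At an unadjusted p under 0.05, 1826 genes were higher in bold fish (10.7%) and 1255 lower (7.34%). All 5 bold samples lay above all 5 shy samples for 190 genes (1.11%) and below them for 176 (1.03%). DESeq2 called 653 genes of 18251 with an adjusted p, 530 higher (2.9%) and 123 lower (0.674%), and voom with sample quality weights called 0. Leaving out bold 4 gave 73 calls in edgeR, 66 of them higher, and leaving out shy 2 gave 1, the gene DLAgn_00093850, which has no symbol (-4.44, adjusted p 0.027). Of the 653 genes of DESeq2, 3 were still called without the shy males. In DESeq2 without them 642 of the 653 kept their direction, 193 of these at an unadjusted p under 0.05. Over all genes 714 of 23955 had such a p there in either direction, and the females are part of both comparisons. Differences below are on the log2 scale, with bold over shy fish as positive and SE as the standard error. None of the genes named from the 10 samples passed there in edgeR with its filter on low counts.

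GBP (DLAgn_00238430), named for the guanylate-binding proteins, a family of GTPases induced by interferon in mammals, had the smallest p of all genes with a symbol. It stood at 53.4 and 32.6 CPM in the bold females and 38, 33.3 and 46.5 CPM in the bold males. Shy females had 15.4, 17.8 and 19.3 CPM and shy males 7.83 and 7.6 CPM. Each bold sample lay above each shy sample, the shy males were the lowest, and the lowest bold value was above the highest shy value by more than the spread among the shy females. The means were 40.7 ± 8.98 CPM in bold fish and 13.6 ± 5.52 CPM in shy fish (SD, 5 samples each), and the log2 difference was 1.79, SE 0.236, unadjusted p 6.87e-06, adjusted p 0.112. KIAA1737 (DLAgn_00067880), also called CIPC and known in mammals as an inhibitor of the CLOCK protein of the circadian clock, stood at 76.5 and 31.4 CPM in the bold females and 48.3, 78.8 and 64.8 CPM in the bold males. Shy females had 17, 15.1 and 15.1 CPM and shy males 23.8 and 22.8 CPM. Here the shy males were above the shy females, so the order among the shy fish was the opposite of that for GBP, and again no bold sample overlapped a shy one. Its log2 difference was 1.63, SE 0.228, unadjusted p 1.31e-05, adjusted p 0.112. GBP and KIAA1737 were the 2 genes called by edgeR when no filter on low counts was used (adjusted p 0.0437 for both).

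STK35, a serine/threonine kinase, stood at 65.1 and 26.1 CPM in the bold females and 68.9, 74.2 and 46.9 CPM in the bold males. Shy females had 18.7, 10.4 and 17.7 CPM and shy males 18.8 and 17.6 CPM. Its groups did not overlap, and bold 4 was the lowest bold sample (log2 difference 1.68, SE 0.263, unadjusted p 3.99e-05, adjusted p 0.197). SSH1, a slingshot phosphatase that activates the actin-severing protein cofilin, averaged 187 ± 57 CPM in bold fish and 83.2 ± 6.91 CPM in shy fish (SD, 5 samples each), a difference of 1.18 (SE 0.201). HCN4, the channel of the pacemaker current in excitable cells, was low in all samples, at 10.9 ± 3.61 CPM in bold fish, against 3.34 ± 1.44 CPM in shy ones, again with no overlap (1.80, SE 0.334). NR1D2, the clock nuclear receptor REV-ERB beta, averaged 154 ± 25.2 CPM in bold fish and 90.4 ± 21.1 CPM in shy fish (SD, 5 samples each), and here bold 4 at 122 CPM lay below shy 5 at 125 CPM. The rest of the 15 genes with the smallest p in this direction included RAB33A, a small GTPase of vesicle traffic (1.62), and NADL1.2 (0.89). Also among them were ACTR1B, a dynactin subunit (1.08), SLC25A10, the mitochondrial dicarboxylate carrier (1.13), and the matrix genes that follow. Without the shy males the differences of RAB33A, NADL1.2, ACTR1B and SLC25A10 were 1.07, 0.72, 0.64 and 0.61.

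Type I collagen, the main fibrillar collagen of connective tissue, was higher in bold fish in all 3 of its best measured identifiers. COL1A2, the alpha 2 chain, stood at 143 and 112 CPM in the bold females and 154, 69.6 and 104 CPM in the bold males. Shy females had 43, 55.8 and 65 CPM and shy males 41.8 and 25 CPM. The lowest bold sample, bold 3, was close to the highest shy sample, shy 5, and shy 2 was the lowest of all (difference 1.47, SE 0.243, unadjusted p 6.71e-05, adjusted p 0.197). COL1A1B, an alpha 1 chain, averaged 113 ± 45.5 CPM in bold fish and 32.7 ± 14.4 CPM in shy fish (SD, 5 samples each), and COL1A1 (DLAgn_00196080) averaged 112 ± 39.4 CPM in bold fish and 41.4 ± 16.7 CPM in shy fish (SD, 5 samples each). In both, bold 3 was the lowest bold sample (53.6 and 59.4 CPM) and shy 2 the lowest shy sample (11.1 and 12.9 CPM). Whether the counting split reads between these chains was not tested. COL1A1 has further identifiers, of which DLAgn_00149450 was at 4.02 CPM or less in every sample (1.11). The other, DLAgn_00087110, had a difference of -0.88 (unadjusted p 0.0751) and fell in bold males (-1.14, adjusted p 0.0465 in edgeR), against the direction of the rest. COL2A1, the chain of cartilage-type collagen II, averaged 22 ± 3.88 CPM in bold fish and 8.95 ± 3.48 CPM in shy fish (SD, 5 samples each), with a difference of 1.43 (SE 0.244). COL11A1 (DLAgn_00074370), a chain of collagen XI, which nucleates fibrils, averaged 13 ± 3.49 CPM in bold fish and 4.64 ± 1.96 CPM in shy fish (SD, 5 samples each), with a difference of 1.63 (SE 0.295). BCAN, brevican, a proteoglycan of the matrix of nervous tissue, stood at 39.1 and 22.8 CPM in the bold females and 33.5, 27.3 and 34.7 CPM in the bold males. Shy females had 15.2, 15.2 and 15.8 CPM and shy males 7.05 and 12 CPM, with no overlap and a difference of 1.35, SE 0.223, unadjusted p 6.04e-05, adjusted p 0.197.

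**Figure D1:**
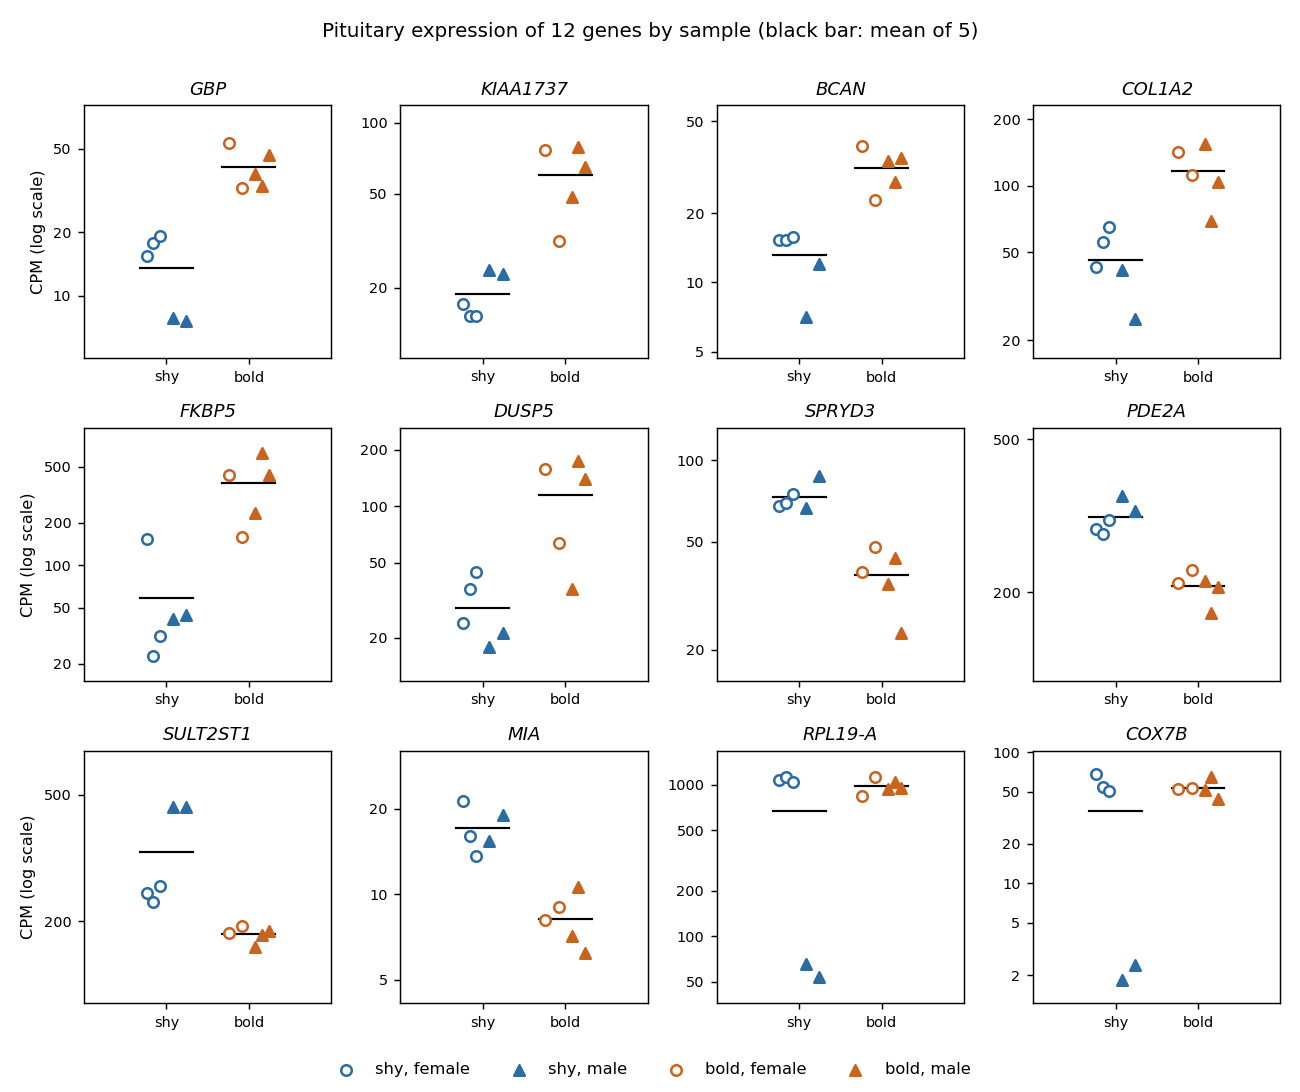
Each panel plots 1 gene's level in CPM (log axis) in the 5 shy and 5 bold pituitary samples, females as open circles and males as filled triangles, with a bar at the mean of each group. GBP, KIAA1737, BCAN, COL1A2 and FKBP5 are higher in all bold samples than in any shy one, SPRYD3, PDE2A, SULT2ST1 and MIA are lower, DUSP5 overlaps in bold 2, and RPL19-A and COX7B are low in the 2 shy males alone.

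Genes lower in bold fish differed by less. SPRYD3, which has a SPRY domain, stood at 67.7, 69.3 and 74.8 CPM in the shy females and 66.8 and 87.6 CPM in the shy males. Bold females had 38.8 and 47.7 CPM and bold males 35.1, 43.7 and 23.1 CPM. No bold sample reached the lowest shy one, and bold 5 was the lowest (difference -0.95, SE 0.18, unadjusted p 0.000198, adjusted p 0.229). PDE2A, a phosphodiesterase that breaks down cAMP and cGMP, stood at 292, 284 and 309 CPM in the shy females and 356 and 326 CPM in the shy males. Bold females had 211 and 229 CPM and bold males 214, 177 and 207 CPM. The shy males were the highest samples and the highest bold value, 229 CPM, stayed below the lowest shy value (difference -0.60, SE 0.115, unadjusted p 0.000225, adjusted p 0.229). SULT2ST1, named in zebrafish for a sulfotransferase of steroids, stood at 246, 230 and 259 CPM in the shy females and 458 and 459 CPM in the shy males. Bold females had 184 and 194 CPM and bold males 166, 181 and 187 CPM. Its groups did not overlap either, but the shy males were far above the shy females (difference -0.87, SE 0.173). MIA, a small secreted protein first described in melanoma, averaged 8.21 ± 1.7 CPM in bold fish and 17.1 ± 3.09 CPM in shy fish (SD, 5 samples each), without overlap. GMNN, geminin, which blocks relicensing of DNA replication, averaged 39.2 ± 5.13 CPM in bold fish and 66.9 ± 18.5 CPM in shy fish (SD, 5 samples each) and overlapped in 1 sample, bold 4 at 46.4 CPM against 46.2 CPM in shy 3. Also among the 15 with the smallest p in this direction were CALL4 (-0.67), ARRDC3, an arrestin-domain protein (-0.71), and GNMT, glycine N-methyltransferase (-0.66). They also included RER1, a retrieval receptor between the Golgi and the endoplasmic reticulum (-0.47), NMT2, an N-myristoyltransferase (-0.61), CD81, a tetraspanin (-0.80), RTFDC1 (-0.60), LOH12CR1 (-0.73) and NMES1 (-0.84).

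Without the shy males, 8 samples remained, and with sex in the model the difference then rests on the 2 bold females against the 3 shy females, with the bold males adding only to the estimate of spread. edgeR called 0 of 17571 genes (0%; smallest adjusted p 0.99), voom called 0, and 429 genes were higher (2.44%) and 291 lower (1.66%) at an unadjusted p under 0.05. In the females alone edgeR called 0 of 17493 genes (0%; smallest adjusted p 0.281), and 429 were higher (2.45%) and 261 lower (1.49%) at an unadjusted p under 0.05. DESeq2 called 14 of 15134 in females, 13 higher (0.0859%) and 1 lower (0.00661%), and 5 of these were matrix genes: COL1A1 DLAgn_00196080 (1.34, adjusted p 9.02e-06), COL1A1B, COL1A2 (1.22), COL6A3 (1.80) and LUM (1.83). The others included HSP70 (1.10), DUSP5 (1.66), GBP, KIAA1737, SSH1, SLC6A13, ITM2CB and, lower in bold females, DLAgn_00093850. Without a filter on low counts edgeR called 4 in females, COL1A1 DLAgn_00196080, COL1A2, HSP70 and DLAgn_00093850, and all 4 are named here because they were called. Leaving out bold 4 gave 41 calls in females in edgeR, with bold 1 then the lone bold sample, and leaving out shy 3 gave 2, RPS16 DLAgn_00163630 (-5.51) and DLAgn_00223350 (3.74). RPS16 DLAgn_00163630, an identifier named for a protein of the small ribosomal subunit, was at 26.4 to 48 CPM in 5 samples (shy 1, shy 4, shy 5, bold 2 and bold 3) and at 0.948 CPM or less in the others, so it split both groups. DLAgn_00093850 was at 5.05 to 13.6 CPM in shy fish other than shy 2, where it was at 0, and at 0.158 to 1.25 CPM in all bold fish. Of the 1826 genes with an unadjusted p under 0.05 and higher in bold fish among the 10 samples, 240 (13.1%) also had one without the shy males, in the same direction. Of the 1255 lower ones, 107 (8.53%) did. Their median difference went from 0.93 to 0.34 and from -0.43 to -0.19, and the females are part of both comparisons. The 15 genes with the smallest p in each direction all kept their direction, with an unadjusted p under 0.05, and their median went from 1.47 to 1.11 and from -0.73 to -0.54. DESeq2 called 3 of 23816 genes without the shy males, 2 higher (0.0084%) and 1 lower (0.0042%). These were KIAA1737 (1.78, adjusted p 0.00172), GBP (1.30, adjusted p 0.0106) and DLAgn_00093850 (-4.90, adjusted p 0.00172). Over all alternatives of the 10-sample comparison the adjusted p of KIAA1737 ranged from 2.26e-08 to 0.99 and that of GBP from 1.46e-08 to 0.99.

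The genes with the smallest p among these 8 samples that were not already described varied in role, and for 10 of the 16 both shy males lay beyond all shy females on the side of the bold fish. How often shy males lie so over all genes was not counted. HSD11B2, the enzyme that inactivates cortisol, stood at 33.6 and 31.8 CPM in the bold females and 38.6, 39.5 and 41.1 CPM in the bold males. Shy females had 21.9, 20.2 and 21.9 CPM and shy males 35.8 and 35.5 CPM. The bold females were above the shy females (difference 0.61, unadjusted p 0.00118). The shy males were within the range of the bold fish but below each bold male (difference in males 0.17). PTGDSB, a lipocalin-type prostaglandin D synthase, stood at 19.3 and 15.1 CPM in the bold females and 19.3, 11.7 and 19.7 CPM in the bold males. Shy females had 7.12, 4.93 and 8.5 CPM and shy males 25.1 and 3.26 CPM, and shy 1 was above every other sample. PMP22A, a peripheral myelin protein, had a difference of 1.36 without the shy males (unadjusted p 0.000918) but of -0.84 in the males alone, and the interaction with sex passed (adjusted p 0.0072). KIAA1199, also called CEMIP and known for hyaluronan breakdown in mammals, differed by 1.22, HSP70, a heat shock chaperone, by 1.10, and PPP1R3E, a glycogen-targeting subunit of protein phosphatase 1, by 0.87. In the other direction stood TNNI2A.1, a troponin of fast muscle (-2.04), CDC25B, a cell cycle phosphatase (-1.64), HRH3, a histamine receptor (-0.93), and SURF4, a cargo receptor of the endoplasmic reticulum (-0.90). Further ones were PCTP, a phosphatidylcholine carrier (-0.75), ISOC2 (-0.74), CETN1, a centrin (-0.66), INSR, the insulin receptor (-0.50), PTPRM, a receptor tyrosine phosphatase (-0.50), and GOLGA7 (-0.45). SURF4 stood at 54.8, 70 and 49.7 CPM in the shy females and 3.65 and 1.63 CPM in the shy males. Bold females had 33.6 and 28.5 CPM and bold males 72.8, 54.2 and 48.8 CPM, so the sexes ran in opposite directions, with the shy males far below all other samples. None of these genes passed in edgeR with its filter on low counts in the 8 samples or in females. SURF4 here is DLAgn_00239140, and a second identifier of that symbol, DLAgn_00084080, was at 131 and 140 CPM in the shy males and 120 to 135 CPM in the shy females.

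Females and males share no sample, so their differences can be set side by side. Over 17168 genes tested in both, 9130 (53.2%) had the same direction, and Pearson's r between the differences was 0.13 and Spearman's rho 0.11, across genes that are not independent and share library depth. Of 422 genes higher in bold females at an unadjusted p under 0.05, 308 (73%) were also higher in bold males, and of 248 lower in bold females, 114 (46%) were also lower in bold males. Of the 2069 genes that passed in males and were higher in bold males, 1150 (55.6%) were higher in bold females and 82 (3.96%) had an unadjusted p under 0.05 there. Of the 1002 that passed and were lower, 528 (52.7%) were lower in bold females, 16 (1.6%) at an unadjusted p under 0.05. Whether the counts exceed what unrelated differences give was not tested.

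**Figure D2:**
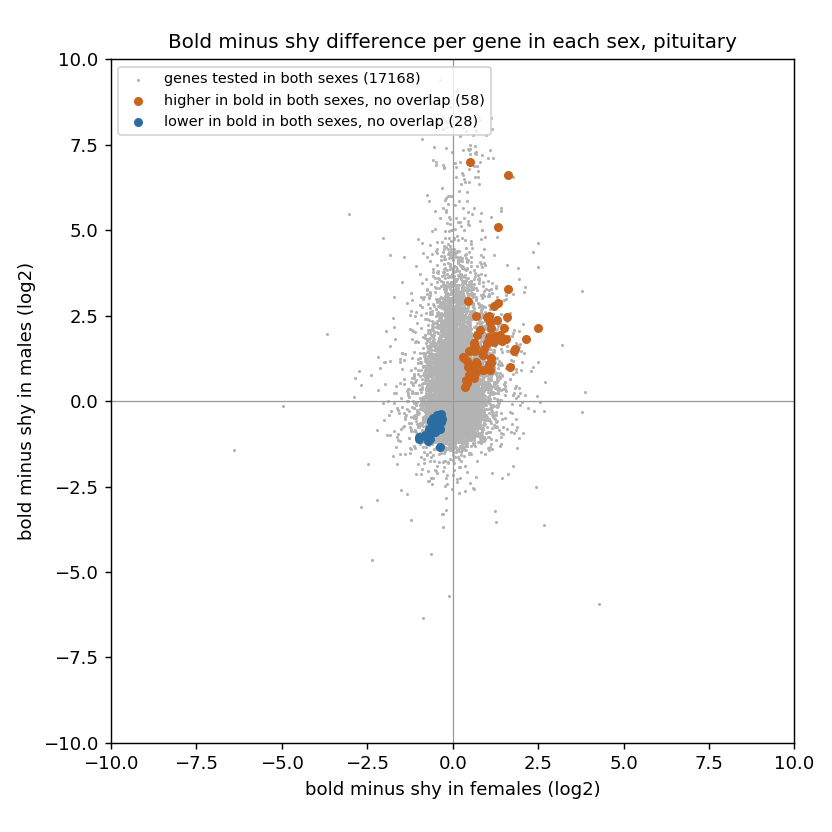
Each grey point is 1 of the 17168 genes tested in both sexes, with its bold minus shy log2 difference in females (2 bold, 3 shy) on the x axis and in males (3 bold, 2 shy) on the y axis, on equal scales. Coloured points are the 58 genes higher and the 28 lower in bold fish in both sexes with no overlap of bold and shy samples, and the male differences reach far higher values above 0 than the female ones.

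Taking genes whose 5 bold and 5 shy samples do not overlap and whose unadjusted p is under 0.05 in the same direction in each sex left 58 genes higher and 28 lower in bold fish. The 10-sample differences of the 58 ranged from 0.39 to 2.84 with a median of 1.24 (0.96 in females and 1.55 in males), and those of the 28 from -1.05 to -0.36 with a median of -0.60 (-0.49 and -0.77). These genes were chosen on those values, which are therefore only a description. Among the 58 (0.339% of all genes tested), 5 belong to the matrix list (BCAN, COL1A2, COL2A1, COL11A1 and COL1A1B), which is 8.47% of its 59 tested genes. Names picked from the rest after their values were seen include DDR1, a receptor of collagen (0.79), MFAP2, a microfibril protein (0.91), NRP1A, a neuropilin (1.67), and SEMA4F, a semaphorin (0.73). CDH4, a cadherin (1.70), CNTNAP4, a neurexin-like protein (1.58), DCLK1 and MAP6, which bind microtubules (0.78 and 1.27), and CHRD, the BMP antagonist chordin (1.99), were others. SOX4, a transcription factor of progenitor cells, was low in shy males, at 0.522 and 1.19 CPM, and at 6.47 to 7.72 CPM in bold males. It was at 2.47, 1.83 and 3.06 CPM in the shy females and at 8.05 and 4.21 CPM in the bold females. The SOX4 difference was 1.34 in females and 2.88 in males. NEFL, the neurofilament light chain, averaged 15.8 ± 2.92 CPM in bold fish and 6.91 ± 2.49 CPM in shy fish (SD, 5 samples each). Regulators of transcription among the 58 included BCL6 (1.02), KLF11 (1.11), MNT (0.65), TSC22D1 (1.08) and ZFPM2 (2.35), and kinases or phosphatases included DUSP8 (0.97), TAOK1 (0.90) and STK17A (1.12). The 28 lower genes included the ion channel TRPV1 (-0.91), the neuromedin U receptor NMUR1 (-0.89), the epithelial transcription factor GRHL2 (-1.02), the focal adhesion kinase PTK2 (-0.36) and the sugar transporter SLC50A1 (-0.60). For 31 of the 58 both shy males lay below all shy females, and for 13 of the 28 they lay above them. The 28 were 0.164% of all genes tested. The share of all genes with such shy males was not counted, and both sets were chosen on values that include these males. The part of the shy males in the sets was not tested.

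In the males, 3 bold against 2 shy fish, edgeR called 3099 of 17752 genes: 2092 were higher in bold males (11.8%) and 1007 lower (5.67%). At an unadjusted p under 0.05, 6162 genes differed. The count of 3099 was 1216 without bold 2, 1554 without bold 5 and 1789 without bold 3. Leaving out a shy male left a lone one, which was assumed to vary like the other samples. The count then fell without shy 2 but not without shy 1. RPL19-A, ATP5J and CCT3 DLAgn_00213670 were among the 5 genes with the smallest p in the higher direction. RPL19-A, a protein of the large ribosomal subunit, stood at 850 and 1121 CPM in the bold females and 935, 1048 and 957 CPM in the bold males. Shy females had 1083, 1122 and 1044 CPM and shy males 65.3 and 54 CPM. The shy males were far below all other samples, and the other 8 samples overlapped between bold and shy. It rose by 4.05 (log2) in bold males over shy males (adjusted p 0.000249), while the difference in females was -0.14. COX7B, a subunit of cytochrome c oxidase, stood at 52.3 and 52.9 CPM in the bold females and 51.1, 64.5 and 43.5 CPM in the bold males. Shy females had 68.1, 53.7 and 50.2 CPM and shy males 1.83 and 2.39 CPM, and the shy males were again far below all other samples. YTHDC1, a nuclear reader of methylated RNA (4.74), ATP5J, a subunit of ATP synthase (3.48), CCT3 DLAgn_00213670, a subunit of the cytosolic chaperonin (3.94), and NGL1 (4.76) also rose. The 5 genes with the smallest p in the other direction were SULT2ST1 (-1.35), ZNF292, a zinc finger protein (-1.14), RORC1 (-1.10), KIAA1522 (-1.32) and IF5A1 (-1.07), and all 5 fell by less than the rises above.

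Shy 1 and shy 2 are the only shy males, so in the interaction test a dependence on sex cannot be told apart from these libraries. The test called 1639 of 17102 genes, with the bold minus shy value higher in males than in females for 1275 (7.46%) and lower for 364 (2.13%). This count was 986 without shy 4 and 1051 without shy 5. It also fell without shy 2 or bold 1 but rose without shy 1, and each of these left a lone sample of that sex and behavior. RPL19-A had a difference in males minus that in females of 4.18 (adjusted p 3.87e-05), COX7B of 4.71 (adjusted p 5.62e-05) and CCT3 DLAgn_00213670 of 4.01 (adjusted p 3.91e-05). PSA3, a proteasome subunit, had 3.04 (adjusted p 5.62e-05). On the other side stood ZNF292 with -1.38 (adjusted p 0.00203) and CDH5, the cadherin of endothelial junctions, with -2.02 (adjusted p 0.00271). CDH5 stood at 12.3, 12.1 and 12.2 CPM in the shy females and 38.1 and 39.2 CPM in the shy males. Bold females had 20.8 and 13.4 CPM and bold males 16.1, 11.8 and 12.6 CPM, so the shy males were above all other samples. TNFSF10L (-1.46, adjusted p 0.00533), ZFP30 (-1.04, adjusted p 0.00553) and SULT2ST1 (-0.99, adjusted p 0.00571) completed the 5 with the smallest p in this direction. Among genes of pituitary function, SCG2 DLAgn_00005210, the secretogranin of hormone granules, stood at 510 and 510 CPM in the bold females and 608, 660 and 525 CPM in the bold males. Shy females had 542, 501 and 466 CPM and shy males 252 and 184 CPM. GALR1 DLAgn_00204180, a galanin receptor, stood at 12.7 and 11.1 CPM in the bold females and 9.72, 15.8 and 14.9 CPM in the bold males. Shy females had 7.84, 5.84 and 10.8 CPM and shy males 1.31 and 1.09 CPM. In both genes the shy males were below every other sample, and the interaction passed (1.44 with adjusted p 0.00434, and 2.96 with adjusted p 0.00553). Other identifiers of these symbols had other levels in the shy males: SCG2 DLAgn_00029100 was at 466 and 133 CPM, and GALR1 DLAgn_00064220 at 85.1 and 217 CPM. Their levels in the other samples are not given here, so these values alone do not show how they differed between groups.

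For 22 of the 26719 gene identifiers, both shy males had 0 counts while each of the other 8 samples had at least 10. SERP1, a stress protein of the endoplasmic reticulum, had 76, 90 and 98 counts in the shy females, 108 and 49 in the bold females, 89, 51 and 147 in the bold males and 0 in both shy males. HSF1, the main heat shock transcription factor, had 34 to 118 counts in the other 8 samples. TRIAP1-B, PWWP2A, DLG4 and SEC23A were further genes of this set, chosen here after their values were seen. A count of 0 in 12138162 counts over both shy males allows up to 0.247 CPM (3 counts over both samples), and such limits and all counting errors here cover counting only, since reads without molecular identifiers are not independent molecules. Of the 22 genes, 16 had at least 10 counts in each brain sample other than brain shy 4, a female, and in that sample all 16 had under 10 counts and 11 had 0. Low levels were common there, since 32.2% of all genes over 5 CPM lay more than 4 times below the other brain samples' median. The share of all genes that fell under 10 counts or to 0 in brain shy 4 was not counted.

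The comparison with the brain was extended to the 421 genes that passed in males with a log2 difference above 3, of which 398 were also tested in females, where their median difference was 0.17. Genes over 5 CPM in the other samples of a tissue were counted as low in a sample when they lay more than 4 times below the other samples' median. By this count 194 of the 204 genes over 5 CPM were low in pituitary shy 1 (95.1%) and 202 of 204 in pituitary shy 2 (99%), which the choice of the genes fixes. In each other pituitary sample 0 to 2 were low. In brain shy 4, a shy female, 259 of 264 (98.1%) were low, against 32.2% of all genes, and in brain shy 1, a male, 56 (21.4%), against 6.02% of all genes. Each other brain sample and each head kidney sample had 0 or 1 such gene. Across genes, the deviation of brain shy 4 from the other brain samples had a Spearman's rho of -0.56 with the pituitary difference in males (13798 genes), of -0.52 with that in all 10 samples (13649) and of -0.05 with that in females (13716). The 58 genes higher in both sexes had a median deviation of -3.64 (log2) in brain shy 4, with 60.8% below -2, and the 28 lower genes one of 0.79 with 0% below -2, against -0.60 and 31.1% over all genes. For the 429 genes higher in bold females at an unadjusted p under 0.05 the median was -0.74, with 34.6% below -2. These values move with the shy males' counts, and their part in the differences between bold and shy fish was not tested.

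**Figure D3:**
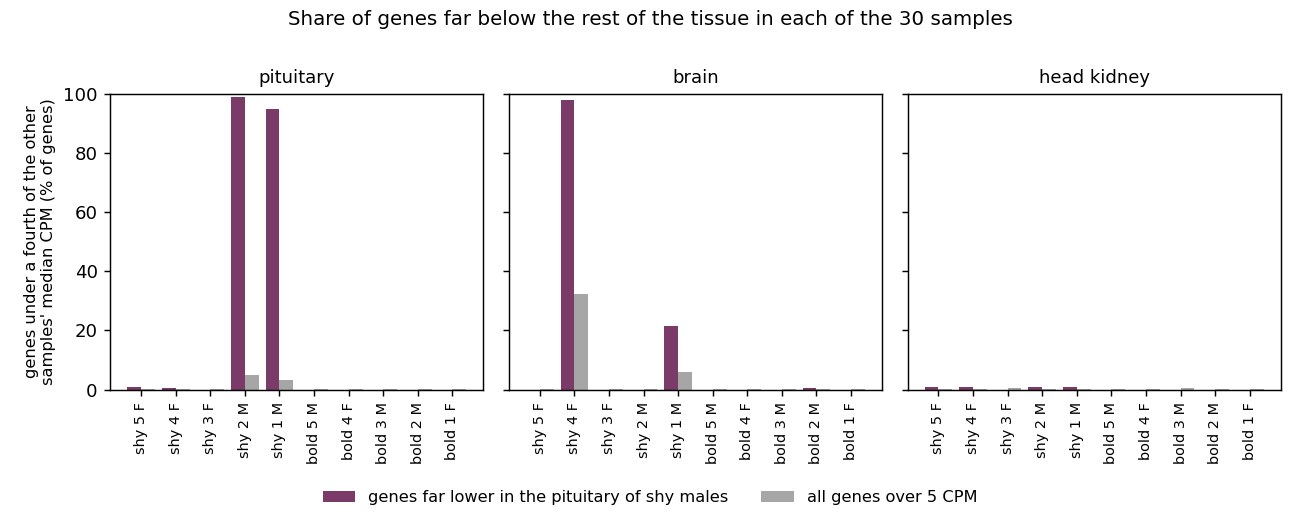
Bars give, for each of the 30 samples in the 3 tissues (F female, M male), the percentage of genes over 5 CPM whose CPM lies more than 4 times below the median of the other samples of the tissue. Purple bars are for those that passed in pituitary males with a log2 difference above 3, and grey bars for all. The purple bars reach 95.1% and 99% in the pituitary of shy 1 and shy 2, 98.1% in brain shy 4 and 21.4% in brain shy 1, and are near 0 in the other samples.

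The gene lists place these genes in pathways, and they are read beside all genes, of which 51.8% had a positive difference in the 10 samples (median 0.02), 50% in females (median 0) and 51.7% in males (median 0.03). Since the lists and their members were chosen with earlier results of these data known, their shares here and below are only a description. In edgeR with its filter on low counts, no member of any list passed in the 10 samples or in females, and members of a list that rose or fell did so in males. Among all genes in males 11.8% rose and 5.67% fell, and 9.58% of all genes passed the interaction test. Of 59 tested collagen and matrix genes, 47 were higher in bold fish in the 10 samples (median 0.45), and 22 of them (37.3%) had an unadjusted p under 0.05, against 10.7% of all genes. In females 53 of 61 were higher (median 0.64), 25 of them (41%) at an unadjusted p under 0.05, against 2.45% of all genes. In males 43 of 61 were higher (median 0.26), 12 rose (19.7%) and 2 fell (3.28%). The summed level of the list was 3016 and 2368 CPM in the bold females, 3107, 2164 and 2507 CPM in the bold males, 2130, 1975 and 1873 CPM in the shy females, and 1929 and 2085 CPM in the shy males. Every bold sum lay above every shy sum, bold 3 by little, and here the shy males lay within the range of the shy females.

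Matrix genes with a small p in females, named here after their values were seen, included chains of collagen VI, which forms beaded filaments around cells, and collagen IV, of basement membranes. COL6A3 stood at 15.8 and 10.5 CPM in the bold females and 16.2, 5.36 and 17 CPM in the bold males. Shy females had 2.76, 3.67 and 4.92 CPM and shy males 11.7 and 10.2 CPM. Its difference was 1.80 in females (unadjusted p 0.000625) and 0.25 in males, where shy 1 and shy 2 lay within the range of the bold males. COL6A2 DLAgn_00049970 (1.49 in females and 0.50 in males), COL4A2 (0.83 and 0.19) and LUM, the collagen-binding proteoglycan lumican (1.82 and 0.39), also had larger differences in females than in males, but the interaction passed for none of the 4 (adjusted p 0.143 to 0.556 in edgeR). For LUM the shy males lay above (shy 1, 15.9 CPM) and below (shy 2, 0.76 CPM) all bold males. COL1A1 DLAgn_00196080 had the smallest unadjusted p of the list in females (2.74e-05), with a difference of 1.34. The fibroblast markers, of which 8 of 16 are also matrix genes of that list, were higher in 9 of 11 in the 10 samples (median 0.84), in 10 of 11 in females (median 0.79) and in 6 of 11 in males (median 0.39). None of the 16 was at 0 counts in all samples. Their summed level was 386 to 953 CPM in the bold samples and 340 to 553 CPM in the shy ones, so the groups overlapped, and the part of fibroblast content in the matrix result was not tested. Enzymes that fold and process collagen were higher in 14 of 25 in females (median 0.04) and 14 of 24 in males (median 0.23), with 3 that rose (12.5%), near the 11.8% of all genes.

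Glucocorticoid-responsive genes and immediate early genes were mostly higher in bold fish in both sexes. FKBP5, which binds the receptor's HSP90 complex and is itself induced by cortisol, stood at 440 and 159 CPM in the bold females and 236, 628 and 440 CPM in the bold males. Shy females had 154, 22.8 and 31.6 CPM and shy males 41.8 and 44.3 CPM. The groups did not overlap, but shy 3 and bold 4, both females, almost met (10-sample difference 2.72, SE 0.656, unadjusted p 0.00261, adjusted p 0.229). In females the difference was 2.11 (unadjusted p 0.149), and in males FKBP5 rose by 3.34 (adjusted p 0.00583). KLF9, a transcription factor induced by glucocorticoids, stood at 51.2 and 21.6 CPM in the bold females and 18.9, 39.4 and 33.9 CPM in the bold males. Shy females had 16.1, 19.7 and 18.2 CPM and shy males 15.7 and 16.5 CPM, and bold 2 lay below shy 4. Of 31 tested genes of the list 27 were higher in bold fish in the 10 samples (median 0.59). At an unadjusted p under 0.05 were 12 of them (38.7%), against 10.7% of all genes. In females 27 of 32 were higher (median 0.47), 7 of them (21.9%) at an unadjusted p under 0.05, against 2.45% of all genes. In males 25 of 32 were higher (median 0.50) and 5 rose (15.6%, against 11.8% of all genes), among them ANGPTL4, an inhibitor of lipoprotein lipase (0.97), CEBPD, a transcription factor (2.77), and IRS2, an insulin receptor substrate (2.11). The list's summed level was 2710 and 1684 CPM in the bold females, 1629, 2501 and 2546 CPM in the bold males, 1336 to 1408 CPM in the shy females, and 1352 and 1474 CPM in the shy males. Each bold sum lay above each shy one, and bold 2 and bold 4 were nearest to the shy fish.

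Of 48 immediate early genes, which respond within minutes to stimulation of a cell, 40 were higher in bold fish in the 10 samples (median 0.67). At an unadjusted p under 0.05 were 17 of them (35.4%), against 10.7% of all genes. In females 43 of 50 were higher (median 0.42), 11 of them (22%) at an unadjusted p under 0.05, against 2.45% of all genes. Among males 40 of 51 were higher (median 0.72), and 7 rose (13.7%, near the 11.8% of all genes). DUSP5, a phosphatase that acts on the MAP kinase ERK, stood at 158 and 64 CPM in the bold females and 36.3, 174 and 140 CPM in the bold males. Shy females had 24, 36.1 and 44.6 CPM and shy males 17.7 and 21.1 CPM. Bold 1, bold 3 and bold 5 were high, bold 4 was lower, and bold 2 lay below shy 5. The summed level of the list was 2869 CPM in bold 2, below every shy sample (3035 to 4426 CPM). Bold 4, at 4357 CPM, lay below shy 2 and shy 5. Bold 1, bold 3 and bold 5, at 5580 to 7379 CPM, lay above all shy samples. ATF3 DLAgn_00072470, a stress-induced transcription factor, stood at 7.97 and 3.64 CPM in the bold females and 1.16, 7.47 and 9.79 CPM in the bold males. Shy females had 1.16, 1.72 and 1.2 CPM and shy males 0.522 and 0.76 CPM, and bold 2 lay within the range of the shy fish, as for DUSP5. The same 3 bold fish, bold 1, bold 3 and bold 5, also held the highest levels of FKBP5 and KLF9. The MAP kinase feedback regulators were higher in 18 of 29 in the 10 samples (median 0.11), and DUSP8 of that list averaged 38.7 ± 10.5 CPM in bold fish and 20 ± 2.71 CPM in shy fish (SD, 5 samples each) with no overlap. Clock genes were higher in 26 of 36 in females (median 0.13) and in 10 of 35 in males (median -0.19), where 4 rose and 4 fell (11.4% each, against 11.8% and 5.67% of all genes). PER2, a repressor of the clock, averaged 94 ± 23.4 CPM in bold fish and 148 ± 26.2 CPM in shy fish (SD, 5 samples each), in the direction opposite to PER1B (0.43), NR1D2 and KIAA1737, and the hour of sampling is not in the labels.

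**Figure D4:**
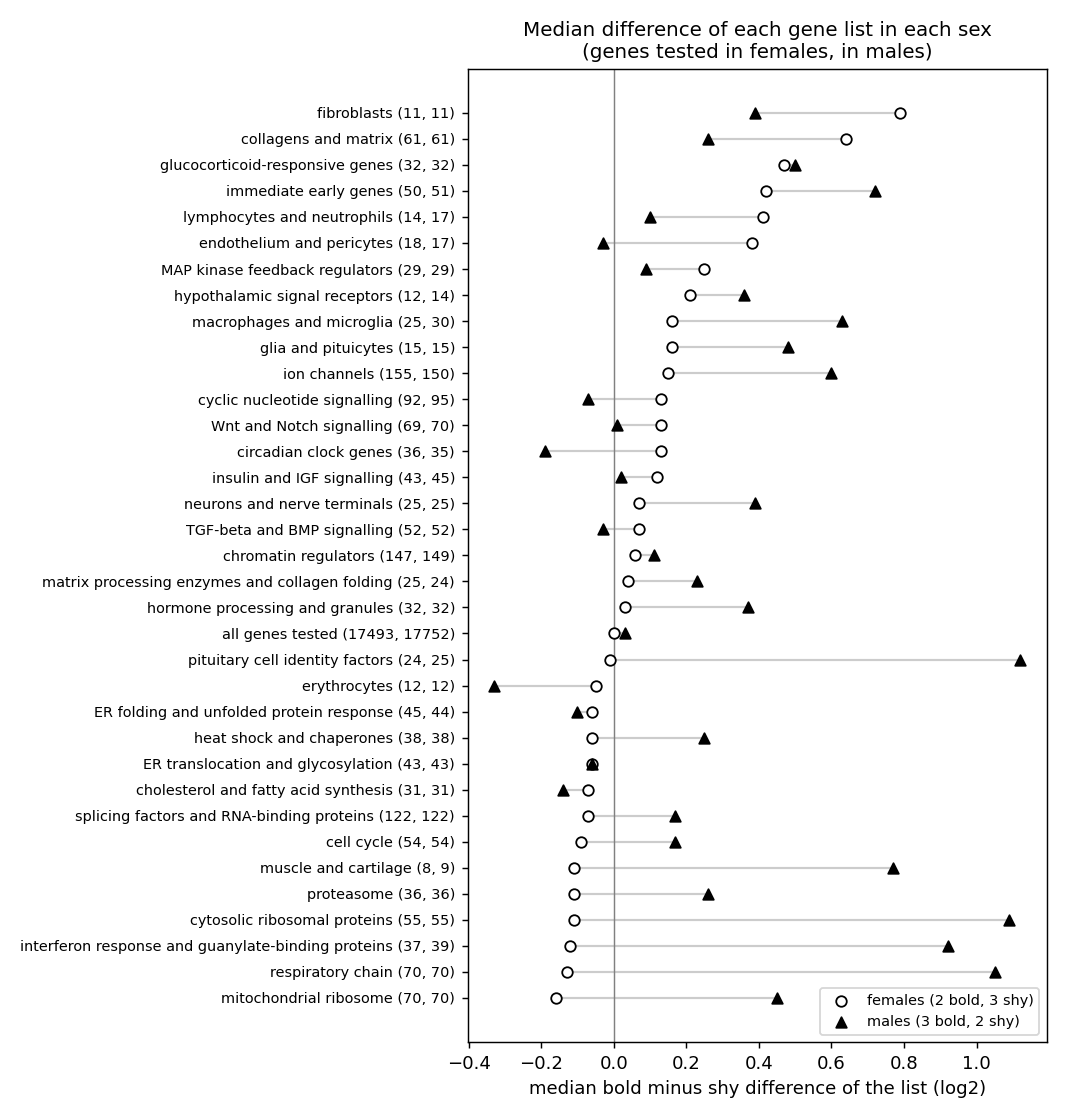
Each row is a gene list with at least 8 genes tested in the 10 samples, and points give the median bold minus shy difference (log2) of its members in females (open circles) and in males (filled triangles), with the number of genes tested in each sex in brackets. Matrix, fibroblast, glucocorticoid-responsive and immediate early lists lie above 0 in both sexes, as do others, among them ion channels and macrophage, glial and lymphocyte markers. The ribosomal protein, respiratory chain and mitochondrial ribosome lists lie below 0 in females and above 0 in males.

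Lists of the basal machinery of the cell had opposite medians in the sexes. Of 55 cytosolic ribosomal protein genes, 48 were higher in bold males (median 1.09), where 27 rose (49.1%, against 11.8% of all genes), but 3 in bold females (median -0.11), and 24 passed the interaction test (43.6%, against 9.58%). Of 70 respiratory chain genes, 64 were higher in bold males (median 1.05), where 41 rose (58.6%), and 16 in bold females (median -0.13), and 40 passed the interaction test (57.1%). Mitochondrial ribosomal proteins were higher in 50 of 70 in males (median 0.45), with 20 that rose (28.6%) and 2 that fell (2.86%), and in 3 of 70 in females (median -0.16). Proteasome subunits were higher in 26 of 36 in males (median 0.26), with 7 that rose (19.4%), and in 5 of 36 in females (median -0.11). In these lists the 10-sample medians of 0.49, 0.50, 0.09 and 0.11 had the sign of the males' medians. The summed ribosomal protein level was 39287 and 55895 CPM in the bold females, 50042, 53720 and 50969 CPM in the shy females, 44568, 48005 and 45495 CPM in the bold males, and 29820 and 16831 CPM in the shy males. The female groups overlapped, since bold 1 was below and bold 4 above the shy females, and the male groups did not. In brain shy 4, 53 of 53 ribosomal protein genes over 5 CPM lay below -2 (median -6.89), as did 56 of 68 respiratory chain genes (82.4%), 14 of 54 matrix genes (25.9%) and 4 of 28 glucocorticoid-responsive genes (14.3%), against 31.1% of all genes.

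Genes of the endocrine cells were mixed. TSHB DLAgn_00096090 stood at 3775 and 3523 CPM in the bold females and 2952, 3550 and 2492 CPM in the bold males. Shy females had 3339, 2319 and 2001 CPM and shy males 1771 and 2098 CPM. Bold values overlapped the shy ones through shy 3, and the difference was 0.57, SE 0.181, unadjusted p 0.00823, adjusted p 0.229. A second identifier, TSHB DLAgn_00130190, was far lower, at 69.7 ± 18.8 CPM in bold fish against 59.4 ± 33.9 CPM in shy ones, and rose in bold males (0.98, adjusted p 0.0242 in edgeR) with a difference of -0.14 in females. Genes of hormone processing and granules were higher in 20 of 32 in females (median 0.03) and 22 of 32 in males (median 0.37), where 5 rose (15.6%) and 3 fell (9.38%), against 11.8% and 5.67% of all genes. Factors of pituitary cell identity were higher in 10 of 24 in females (median -0.01) and 22 of 25 in males (median 1.12), where 10 rose (40%), and the interaction passed for 10 of 24 (41.7%, against 9.58% of all genes). The summed level of these factors was 2269 and 2638 CPM in the shy males, below the 2650 to 3125 CPM of all other samples. Receptors of hypothalamic signals were higher in 9 of 12 in females (median 0.21) and 8 of 14 in males (median 0.36), with 1 that rose and 1 that fell (7.14% each). Ion channels were higher in 110 of 144 in the 10 samples (median 0.39), in 105 of 155 in females (median 0.15) and in 109 of 150 in males (median 0.60). In females 3 of them (1.94%) were higher at an unadjusted p under 0.05, against 2.45% of all genes, and in males 24 rose (16%) and 2 fell (1.33%), against 11.8% and 5.67%.

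The remaining lists had medians nearer to that of all genes, differed between the sexes or, as for glial, macrophage and lymphocyte markers, lay above 0 in both. The median difference was 0.06 in females and 0.11 in males for chromatin regulators (147 and 149 genes) and -0.07 and 0.17 for splicing factors (122 in each). It was -0.06 and 0.25 for heat shock proteins and chaperones (38 in each), -0.09 and 0.17 for cell cycle genes (54 in each), and -0.07 and -0.14 for cholesterol and fatty acid synthesis (31 in each). It was -0.06 and -0.10 for protein folding in the endoplasmic reticulum, -0.06 and -0.06 for translocation and glycosylation there, 0.13 and -0.07 for cyclic nucleotide signalling, and 0.07 and -0.03 for TGF-beta and BMP signalling. For Wnt and Notch signalling it was 0.13 and 0.01, and for insulin and IGF signalling 0.12 and 0.02, and both male values became -0.01 and -0.00 with scaling by median of ratios. The interferon list, of which GBP is a member, was higher in 13 of 37 in females (median -0.12) and 30 of 39 in males (median 0.92), with 1 that rose (2.56%), GBP itself. Its summed level in males was high in bold 5 alone, at 4369 CPM. Bold 2 and bold 3, at 1648 and 1641 CPM, lay below shy 1 and shy 2, at 2010 and 2034 CPM. Of markers of other cells, neuronal genes had medians of 0.07 in females and 0.39 in males, and glial and pituicyte genes 0.16 and 0.48. Medians were 0.38 and -0.03 for endothelial and pericyte genes, 0.16 and 0.63 for macrophage genes and 0.41 and 0.10 for lymphocyte and neutrophil genes. They were -0.05 and -0.33 for erythrocyte genes, and -0.11 and 0.77 over 8 and 9 muscle and cartilage genes. Summed erythrocyte markers, a sign of blood in the gland, were 483 to 872 CPM in the bold samples and 543 to 1148 CPM in the shy ones, and the groups overlapped. Summed macrophage markers were 244 to 825 CPM in the bold samples and 246 to 351 CPM in the shy ones, with bold 5 the highest, and summed endothelial markers 409 to 986 CPM and 293 to 659 CPM. What part differences in these cells have in the results above was not tested.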

How the data were processed

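Reads per gene of 30 samples from 3 tissues were deposited by the authors as raw counts, with no normalization, and the 10 pituitary columns were analysed. One column, whose name is the digit 1, was deposited as raw counts like the rest. The submitters' processing notes name featureCounts 1.6.2, SAMtools 1.5, TopHat2 2.1.1 with Bowtie2 2.2.9, FastQC and bcl2fastq 2.20. The build, the annotation and whether the counting used strand were not given in the sources used here, so overlapping and antisense genes could not be told apart. Per the labels' protocols, a stranded mRNA kit was used, with single-end reads of 50 nt over 3 lanes. The labels give no batch. None of the 45 pairs of pituitary columns held identical values.

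The table holds 26719 identifiers, of which 5479 have no symbol. Genes were kept by filterByExpr on behavior (minimum count 10), scaled with TMM and tested with edgeR 4.0.16 (quasi-likelihood, robust, R 4.3.3), with sex as a covariate in the 10 and 8 samples and none within a sex. Genes passed at a Benjamini-Hochberg adjusted p under 0.05. The SE is the absolute log2 difference divided by the square root of F. The fit was tested on simulated data in which each unchanged gene had the same mean level in all samples. Libraries with many genes far lower, such as those of the shy males, were therefore not covered by that test. DESeq2 1.42.0, limma 3.58.1 (voom with quality weights), median-of-ratios scaling, 2 other filters, no sex covariate, no robust shrinkage and leaving out each sample were alternatives. DESeq2 without the shy males was an alternative of that comparison. Setting its count beside that of the 10 samples, and running it without the sex covariate, were added after seeing the data, as were the comparison with brain shy 4 and the genes COL6A2, COL6A3, COL4A2 and LUM. Each sample is 1 fish, and the p-values set each difference against the spread between these fish, which was estimated with information shared across genes.

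Genes were named by rule: the 15 smallest p in each direction in the 10 samples, the 15 among genes without overlap and with an unadjusted p under 0.05 in each sex, the 10 without the shy males, the 5 in the males and in the interaction, hormone genes, and up to 4 per list. A few genes this rule picks are not reported here. Members and lists were chosen with earlier results of these data known. No sequence was used here.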

Additional observations from a re-analysis of the deposited data

Results flagged for a closer look

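The interaction test called 1639 genes whose bold minus shy difference was unlike in the sexes. Among the named genes, the difference in males minus that in females (log2) was 5.52 for SURF4, 4.71 for COX7B, 4.68 for YTHDC1, 4.18 for RPL19-A, 4.01 for CCT3 and 3.73 for ATP5J. It was 2.96 for GALR1, 2.77 for PTPRM DLAgn_00008280, 1.44 for SCG2 and 1.07 for INSR. Negative values were -2.21 for PMP22A, -2.02 for CDH5, -1.38 for ZNF292 and -0.99 for SULT2ST1. Both shy males lay below or above all other samples in these genes except PMP22A, where shy 2 lay below bold 1. No other shy males were sampled, so sex cannot be told apart from their libraries in these values.

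Single samples stood apart from their group of 5 in 7 of 116 groups looked at, and chance flags about 1 in 20 groups. They were FKBP5 in shy 3 at 154 CPM, STK35 in shy 4 at 10.4 CPM, HCN4 in shy 4 at 5.84 CPM, PTGDSB in shy 1 at 25.1 CPM, PER1B in shy 1 at 140 CPM, COL1A1 in shy 2 at 12.9 CPM and PER2 in bold 3 at 52.2 CPM.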

How the results depend on the processing

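In the 10 samples the count of genes passing was 0 in edgeR, 653 in DESeq2, 2 without a filter on low counts, 3 in DESeq2 without the shy males, 51 in DESeq2 without them and without the sex covariate, and 0 to 73 when 1 sample was left out. Without the shy males DESeq2 called 3, and in females DESeq2 called 14, edgeR without the filter 4, and edgeR 0 to 41 when 1 sample was left out. The males gave 805 to 3197 calls and the interaction 711 to 2242 when 1 sample was left out, and a lone sample was assumed to vary like the others. CDH5 turned to 0.49 without the shy males (0.50 in DESeq2) and to 0.29 also without the sex covariate (0.29 in DESeq2). TSHB DLAgn_00130190 turned to -0.14 (-0.14) and -0.11 (-0.11) under the same settings. Here the comparison rests on other samples by construction. Of 1644 values for 94 named genes, 1544 kept their direction and side of the threshold, 92 (48 genes) passed only under the alternative, and 8 (2 genes) turned. This covers 94 genes, whereas 193 were named in all, and other genes turned too without the shy males. RPL19-A went from 1.93 in the 10 samples to -0.14, SURF4 DLAgn_00239140 from 1.37 to -0.90 and ZNF292 from -0.47 to 0.22. No paired analysis was possible because the replicate numbers were given in accession order and pair no samples. The 2 bold females, 2 shy males and the 3808645 counts of shy 1 limit the precision.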
